A study of Homo sapiens with 20 samples.

Results

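The comparison covered the RNA recovered with the RNA-binding protein IGF2BP3 after 2 h of arsenite and after 2 h of PBS. It rests on 6 of the 20 libraries of the series, 3 made from arsenite-treated cells and 3 from PBS-treated cells, chosen by their library names. All were PAR-CLIP libraries of HCT116 Tet-OsTIR1-PURO cells, which derive from a colorectal carcinoma and carry the plant protein OsTIR1. In PAR-CLIP the uridine analogue 4-thiouridine enters RNA, ultraviolet light links it to bound protein, and a linked base shows up as a T-to-C change. All groups received 100 µM 4-thiouridine for 15 h and 365 nm light at 0.15 J/cm2, and the RNA was pulled down with an anti-IGF2BP3 antibody. The treated group received 250 µM arsenite for 2 h and the control group PBS for 2 h. Sample titles name the compound arsenite and other labels name it sodium arsenate. The labels do not say whether replicates came from separate cultures, so the p-values measure only the spread between these libraries.

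IGF2BP3 belongs to the insulin-like growth factor 2 mRNA-binding proteins, which bind many mRNAs through RRM and KH domains and are known for prolonging mRNA life and for expression in embryos and tumours. Arsenite reacts with thiol groups. It is a textbook inducer of the MAP kinase and immediate early response, of the heat shock and NRF2 antioxidant programmes, of a general block of translation, and of stress granules, in which IGF2BP proteins are found.

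Each cluster list gave 3579 to 45613 clusters, with 3579 in PBS replicate 2 and 15648 or more in the other libraries. The clusters held 42699 reads in PBS replicate 2 and 218140 to 828783 in the others. PBS replicate 2 therefore held no cluster for 128 of the 920 genes tested below, and counts are given with and without it. Of 13 markers of colon epithelium and of the line, 8 had a called cluster, namely EPCAM, CDH1, KRT8, KRT18, KRT19, CDX2, CLDN4 and ELF3. Their summed reads were 44, 5 and 44 in the PBS libraries and 44, 50 and 171 in the arsenite libraries. CEACAM5, CEACAM6, CDX1, VIL1 and LGR5 had none. Markers of fibroblasts, endothelium and hepatocytes were at 0, and of 5 leukocyte markers CD68 alone had reads, 15 in 1 library.

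The sequences below are the crosslinked windows of regions that carry the changes described next, shown to let the raised and lowered sites be compared. Each is a stretch of 30 bases of the most read cluster that holds the authors' mode position, which lies at the edge of the window for FOS, EGR1 and S100A16, 5′ to 3′ in the sense of the RNA with T for U, in hg38. Capitals mark matches to short motifs reported for IGF2BP proteins, searched on the RNA strand only and allowed to overlap. They are CATA and its variants with a last base of C, as in CATC, or of T, as in CATT. The remaining motif is GGAC. Regions with no PBS cluster are given here:
FOS: gcagccggcacccacaagtgccactgcccg
EGR1: tcctcggcgccgccggggccccagagggca
FOSB: tatattttttaatatcggggggtGGACcac
BAG3: ctctGGACtggaggggtagatggggagtca
JUN: acttgtgcgcgcagcccaaactaacctcac
EGR2: aCATCcgaatccacactgggCATAagccct
Regions with fewer reads after arsenite are given here:
HSBP1: ttggcggttcttgCATAaCATTgtcagatt
RPL39: atatcaagctgaaaatgtcaccactatctg
BANF1: ctttcctgaatggattcccggcccCATCcc
RHOA: agcacagcccttatgcggttaattttgaag
S100A16: caatgctgtctggGGACcctaagagttttc
HNRNPA0: tGGACtcggccccaCATAcaCATTtttgtg
The raised windows lie at chr14:75281443-75281472 (FOS, plus strand), chr5:138465904-138465933 (EGR1, plus), chr19:45474425-45474454 (FOSB, plus), chr10:119677594-119677623 (BAG3, plus), chr1:58783091-58783120 (JUN, minus) and chr10:62813530-62813559 (EGR2, minus). The lowered windows lie at chr16:83811652-83811681 (HSBP1, plus), chrX:119786594-119786623 (RPL39, minus), chr11:66004008-66004037 (BANF1, plus), chr3:49360167-49360196 (RHOA, minus), chr1:153607264-153607293 (S100A16, minus) and chr5:137752921-137752950 (HNRNPA0, minus). Over all 106717 such windows of the 6 libraries, 46.4% held at least 1 of these motifs. Of the windows shown, FOS, EGR1 and JUN on the raised side and RPL39 and RHOA on the lowered side hold none. The raised windows have 2 to 11 T and the lowered ones 8 to 12 T, a description of chosen sites with no test.

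Arsenite changed the amount of IGF2BP3-bound RNA recovered from a large share of genes. In the deposited count table, edgeR's quasi-likelihood test called 2310 of 6642 genes (34.8%) at an adjusted p under 0.05, and DESeq2 called 1233. The Ensembl identifiers of that table could not be named here. Named genes therefore come from the cluster reads, assigned to RefSeq genes by position and strand and given in CPM, the usual unit scaled for depth, after TMM scaling. Of 920 genes with a mean of at least 200 CPM, edgeR's test called 307, or 33.4%. Of all 920, 178 (19.3%) were higher and 129 (14%) lower after arsenite. At least 2-fold changes were seen in 136 raised and 46 lowered genes. The CPM values of the groups did not overlap in 53.9% of the genes. Without PBS replicate 2 the test called 273 higher and 200 lower of 985 genes, and 296 of the 307 calls remained. With library totals as the only scaling 41.9% of 339 calls were higher, against 58.0% here, with the median of all genes at -0.21 on the log2 scale in place of 0.01. Without arsenite replicates 1, 2 or 3 the test called 197, 131 and 159 genes. The 200 CPM minimum was set after the files were seen. With filterByExpr, edgeR's filter on low counts, in its place, the test called 337 of 2792 genes. Of these calls 253 (75.1%) were higher and 84 lower, with the median of all genes at 0.32 on the log2 scale. The minimum is on the mean of all 6 libraries, so a gene near 0 in PBS was tested only if it was high after arsenite, and counts of members tested below favour raised ones. A cluster is listed only above the caller's thresholds, so a 0 means no called cluster and not that no read was present, and such genes get no fold. How much of an RNA the cells held was not analysed here, so more RNA and more binding cannot be told apart.

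Transcripts of immediate early transcription factors rose, several of them from no called cluster. FOS, which pairs with JUN proteins in the AP-1 factor, had no called cluster in any PBS library and 3123, 3069 and 2352 CPM in the arsenite libraries. FOSB, its paralogue, likewise went from no called cluster to 1793, 2111 and 1087 CPM. JUN had no called PBS cluster and 639, 640.4 and 610.1 CPM after arsenite, a narrow spread. JUNB had 125 CPM in PBS replicate 2, no called cluster in the other PBS libraries, and 586, 518 and 480 CPM after arsenite. Its call was ended by 3 of the alternatives, the DESeq2 test among them. FOSL1, another partner of JUN, was already present, at 572, 648 and 526 CPM in PBS. It reached 1440, 1621 and 1224 CPM (log2 fold change 1.33 with SE 0.16; edgeR adjusted p 0.00064). ATF3, a stress-induced partner of JUN, had 404, 0 and 316 CPM in PBS and 2660, 2718 and 1967 after arsenite. On the log2 scale it changed by 2.99 (SE 0.41, edgeR adjusted p 0.0013), or 2.72 without PBS replicate 2. Of the 12 AP-1 and ATF/CREB factors listed, 10 had a called cluster and 6 passed the 200 CPM minimum. All 6 were called higher, beside 19.3% of all genes. Only 2 of the 6 reached the minimum on their PBS mean, so 4 were tested because they were high after arsenite. The summed reads of all 12 made up 0.119, 0.092 and 0.095% of nuclear-encoded cluster reads in PBS and 1.02, 1.03 and 0.709% after arsenite.

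EGR1, a zinc finger factor of the same early wave, had the most cluster reads after arsenite among the genes named. Its PBS libraries held 762, 1358 and 1269 CPM and its arsenite libraries 21463, 18693 and 15996. It changed by 4.09 (SE 0.33) on the log2 scale, with clusters in all 6 libraries (edgeR adjusted p 0.00016). EGR2 and EGR3 had no called PBS cluster and means of 602 ± 151 and 1663 ± 498 CPM after arsenite (SD, n = 3). The orphan nuclear receptor NR4A1 had 53.4 CPM in PBS replicate 1 and no called cluster in the other PBS libraries, against 2117, 2264 and 1693 CPM. Its relative NR4A2 rose from 72.4, 0 and 90.3 CPM to 1054, 1203 and 1013 CPM. IER2 rose from 541 ± 259 to 2263 ± 421 CPM (log2 fold change 2.26 with SE 0.28; edgeR adjusted p 0.00088). PLK2, a kinase of the early response, and MCL1, an anti-apoptotic protein with a short-lived mRNA, rose by 2.01 and 1.29 on the log2 scale (edgeR adjusted p 0.00058 for each). MYC did not follow. It had 957, 982 and 862 CPM in PBS and 996, 963 and 839 after arsenite, and the groups overlapped (edgeR adjusted p 0.98). Of 21 further immediate early genes listed, 10 were tested, 9 were called higher and none lower, beside 19.3% and 14% of all genes. Of the 10, 6 reached the minimum on their PBS mean, and EGR2, EGR3, NR4A1 and NR4A2 did so only through the arsenite libraries. Their summed share of reads went from 0.456 ± 0.054% to 2.94 ± 0.51% (SD, n = 3).

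Some feedback inhibitors and decay factors of the same response rose. ZFP36, or tristetraprolin, which directs mRNAs with AU-rich elements to decay, had 19.1 CPM in PBS replicate 1, none in the other PBS libraries, and 1611, 1512 and 1283 after arsenite. Its paralogue ZFP36L1 rose less, from 1543 ± 163 to 2298 ± 428 CPM (edgeR adjusted p 0.043), a call that 8 of the alternatives ended. ZFP36L2 did not pass, at 516 ± 97.2 and 469 ± 57.4 CPM (edgeR adjusted p 0.78). DUSP2, a phosphatase that inactivates MAP kinases, had no called PBS cluster and 485 ± 55.6 CPM after arsenite. DUSP5, an ERK phosphatase, rose from 317 ± 44.4 to 897 ± 144 CPM (log2 fold change 1.51 with SE 0.20; edgeR adjusted p 0.001). SPRY4, a Sprouty inhibitor of receptor kinase signalling, rose by 1.28 on the log2 scale (edgeR adjusted p 0.005). ERRFI1, an inhibitor of the EGF receptor, did not pass, at 4352 ± 1030 and 3953 ± 591 CPM. The share of its reads near the 3′ end of the gene fell, as described below. Of 16 feedback inhibitors, 6 were tested, 3 were higher and none lower, beside 19.3% and 14% of all genes. DUSP2 reached the minimum only through the arsenite libraries. DUSP4 and SPRED2 did not pass either (edgeR adjusted p 0.22 and 0.13). Among Krüppel-like factors, 2 of 11 were tested and called higher, beside 19.3% of all genes. KLF5 went from 289 ± 160 to 1312 ± 160 CPM and KLF10 from 95.4 ± 88.7 to 826 ± 173 CPM. KLF10 reached the minimum only through the arsenite libraries.

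**Figure D1:**
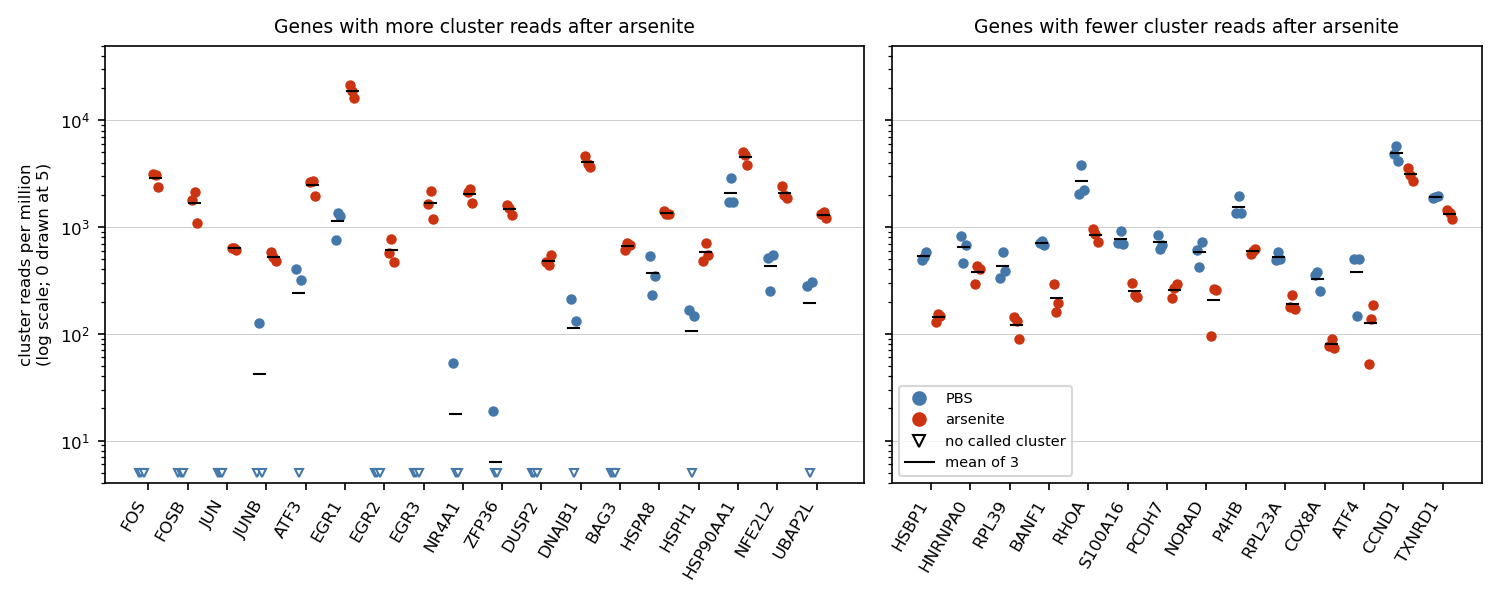
Cluster reads in CPM after TMM scaling (log axis) of 18 raised and 14 lowered genes, each point 1 library, blue for PBS and red for arsenite, with black lines at the mean of 3; open triangles at the bottom are libraries with no called cluster. The arsenite points of FOS, JUN and EGR1 lie far above their PBS points, while lowered genes such as HSBP1 keep reads in all 6 libraries; ATF4 is the gene whose groups overlap.

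Heat shock transcripts rose in part. DNAJB1, an HSP40 co-chaperone and a classical HSF1 target, had 210, 0 and 131 CPM in PBS and 4610, 3884 and 3626 after arsenite. On the log2 scale it changed by 4.75 (SE 0.38, edgeR adjusted p 0.00016), or 4.52 without PBS replicate 2. BAG3, a co-chaperone of HSP70 in selective autophagy, had no called PBS cluster and 615, 704 and 672 CPM after arsenite. HSPH1, an HSP110 exchange factor, rose from 105 ± 91.6 to 579 ± 118 CPM (edgeR adjusted p 0.0089). HSPA8, the constitutive HSP70, rose by 1.74 on the log2 scale (edgeR adjusted p 0.00088). HSP90AA1, the inducible HSP90, rose from 2092 ± 668 to 4490 ± 651 CPM (edgeR adjusted p 0.0081). The constitutive HSP90AB1 rose less, from 1024 ± 127 to 1476 ± 138 CPM (edgeR adjusted p 0.017), a call that 7 of the alternatives ended. HSPD1, the mitochondrial chaperonin, did not pass, at 1733 ± 495 and 1390 ± 80.3 CPM. PTGES3, the HSP90 co-chaperone p23, was called lower with an edgeR adjusted p of 0.046, which 10 of the alternatives ended. Of 32 chaperones listed, 27 had a called cluster and 10 were tested. Of the 10, 7 were higher and 1 was lower, beside 19.3% and 14% of all genes, and 6 reached the minimum on their PBS mean. The summed share of reads of all 32 went from 0.852, 1.11 and 0.827% in PBS to 1.94, 1.78 and 1.53% after arsenite, with no overlap.

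Few antioxidant genes were called. NFE2L2, which encodes NRF2 itself, rose from 511, 251 and 542 CPM to 2431, 1971 and 1878 CPM (log2 fold change 2.12 with SE 0.21; edgeR adjusted p 0.00032). TXNRD1, the thioredoxin reductase and an NRF2 target, fell from 1908 ± 55.8 to 1323 ± 121 CPM (log2 fold change -0.53, edgeR adjusted p 0.014, ended by 4 alternatives). SRXN1 and SQSTM1 did not pass, with edgeR adjusted p of 0.91 and 0.76, and FTL, ferritin light chain, was at 0.055. HMOX1, haem oxygenase and a well-known arsenite-responsive gene, had 0, 0 and 0 reads in PBS and 9, 33 and 62 reads after arsenite, too few to be tested. Of 30 NRF2 targets, 6 were tested, with NFE2L2 alone higher and TXNRD1 alone lower, near the 19.3% and 14% of all genes, and their summed share of reads overlapped between groups. SLC30A1, a zinc exporter controlled by MTF1, rose from 97.7 ± 85.2 to 533 ± 144 CPM (edgeR adjusted p 0.012), a call that 3 of the alternatives ended. It had no called cluster in PBS replicate 2 and reached the minimum only through the arsenite libraries. Of 10 metallothioneins and MTF1 targets listed, it was the 1 tested.

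Among endoplasmic reticulum and integrated stress genes, single members were called in each direction. ATF4, the transcription factor whose translation rises when the initiation factor eIF2 is phosphorylated, had 503, 146 and 497 CPM in PBS and 52.4, 136 and 186 after arsenite. The groups overlapped through PBS replicate 2, and the edgeR adjusted p was 0.039. Without that library it was 0.00083, while leaving out any of the other 5 libraries, the replicate block and filterByExpr each ended the call. SESN2, an ATF4 and p53 target that restrains mTORC1, rose from 169 ± 55.2 to 569 ± 47.9 CPM (edgeR adjusted p 0.0014). HSP90B1, the HSP90 of the endoplasmic reticulum, had 69.8 CPM in PBS replicate 3, none in the other PBS libraries, and 687, 696 and 618 after arsenite. P4HB, or protein disulfide isomerase, fell from 1364, 1944 and 1347 CPM to 563, 601 and 617 CPM (log2 fold change -1.33 with SE 0.16; edgeR adjusted p 0.00074). The lectin chaperones CANX and CALR fell by 0.83 and 0.66 on the log2 scale (edgeR adjusted p 0.022 and 0.036), calls that 4 and 8 of the alternatives ended, leaving out any single arsenite library among them. HSPA5, or BiP, did not pass (edgeR adjusted p 0.38). Of 22 endoplasmic reticulum genes, 5 were tested, with 1 higher and 3 lower, beside 19.3% and 14% of all genes. Of 29 genes of the integrated stress response, 10 were tested, with 1 higher and 1 lower, shares below those of all genes. On their PBS mean 4 of the 5 and 8 of the 10 reached the minimum. The raised members, HSP90B1 and SESN2, did so only through the arsenite libraries.

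Transcripts of proteins that build stress granules rose in part. Of 21 listed, 9 were tested and 6 were higher and none lower, beside 19.3% and 14% of all genes. UBAP2L and EIF4G1 reached the minimum only through the arsenite libraries. UBAP2L, a granule nucleator, had 278, 0 and 304 CPM in PBS and 1311, 1373 and 1205 after arsenite (edgeR adjusted p 0.0023). ATXN2L rose from 218 ± 189 to 1081 ± 158 CPM, with no called cluster in PBS replicate 2 (edgeR adjusted p 0.0084). Its call was ended by 3 of the alternatives. CAPRIN1, a G3BP partner, rose from 892, 899 and 760 CPM to 1740, 1690 and 1553 CPM (log2 fold change 0.98 with SE 0.13; edgeR adjusted p 0.001). DDX6 and EIF4G1 rose by 0.90 and 1.29 on the log2 scale (edgeR adjusted p 0.018 and 0.020), calls that 5 of the alternatives ended for each. The core factors G3BP1 and G3BP2 did not pass, with edgeR adjusted p of 0.93 and 0.46, nor did PABPC1, the poly(A)-binding protein, at 13866 ± 4141 and 10991 ± 2167 CPM. The summed share of reads of the 21 overlapped between groups.

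Some of the largest or most even rises lay outside these programmes. CLTC, the clathrin heavy chain, rose from 480, 376 and 444 CPM to 1564, 1562 and 1516 CPM (log2 fold change 1.79 with SE 0.13; edgeR adjusted p 0.00012). CCNL1, a cyclin tied to splicing, and SCAF4, a factor that prevents early polyadenylation, each had reads in PBS replicate 3 alone, 20.5 and 24.6 CPM. After arsenite they had 434 ± 29.1 and 459 ± 25 CPM (edgeR adjusted p 0.00065 and 0.00085). MKI67, the proliferation marker, had no called cluster in PBS replicate 2 and rose by 2.26 on the log2 scale without it. RRM2, the other gene tested from the mitosis and proliferation list, did not pass (edgeR adjusted p 0.44). CCNL1, SCAF4 and MKI67 reached the 200 CPM minimum only through the arsenite libraries.

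**Figure D2:**
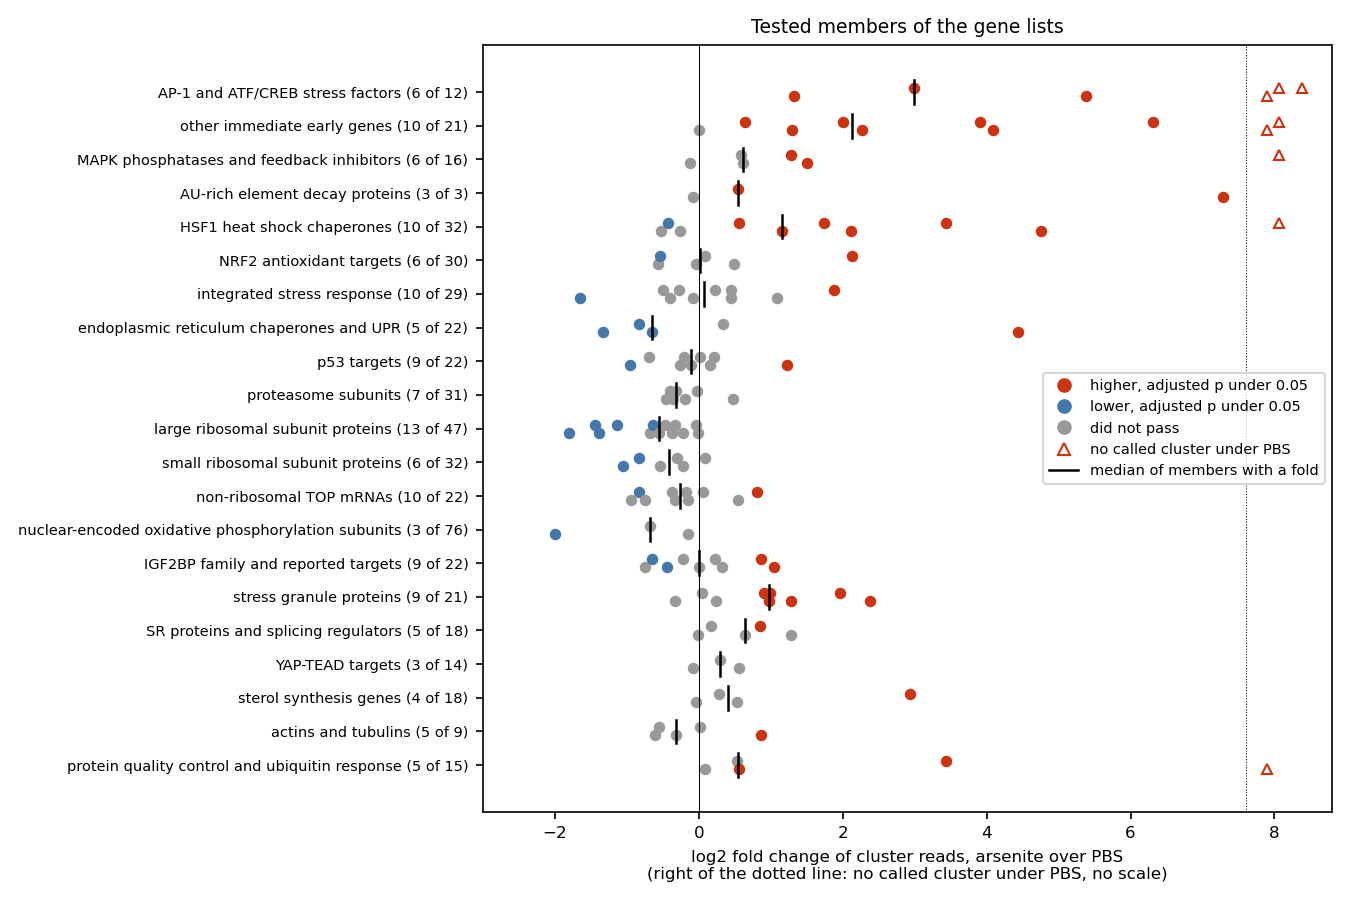
Log2 fold change of cluster reads, arsenite over PBS, for the tested members of each gene list with 3 or more tested (numbers in parentheses are members tested of members listed), coloured by the edgeR call, with a black bar at the median of members that have a fold; open triangles beyond the dotted line had no called cluster under PBS and carry no scale. The medians of the immediate early and chaperone lists lie to the right and those of the ribosomal protein lists to the left of 0. On the other side of 0 lie 3 of the 10 tested chaperones and 1 of the 6 tested small subunit members.

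Ribosomal protein transcripts were among those with fewer reads after arsenite. RPL39, a short protein of the large subunit, had 332, 585 and 386 CPM in PBS and 121 ± 28.3 after arsenite (SD, n = 3). On the log2 scale it changed by -1.81 (SE 0.34, edgeR adjusted p 0.0051), and the groups did not overlap. RPL23A fell from 529 ± 49.3 to 192 ± 31.5 CPM (edgeR adjusted p 0.0033) and RPLP0, the stalk protein, from 388 ± 118.8 to 154 ± 35.5 CPM (edgeR adjusted p 0.015). RPL23 and RPL15 fell by 1.14 and 0.63 on the log2 scale (edgeR adjusted p 0.019 for each). The calls of RPLP0, RPL23 and RPL15 were ended by 5, 3 and 4 of the alternatives. Of 47 large subunit genes, 45 had a called cluster and 13 were tested. Of the 13, 5 were lower and none higher, beside 14% and 19.3% of all genes, with a median of -0.55. All 13 passed the minimum on their PBS mean. Of 32 small subunit genes, 6 were tested and 2, RPS2 and RPSA, were lower, beside 14% of all genes. The calls of RPS2 and RPSA were each ended by 7 of the alternatives. The summed share of reads went from 0.962, 0.924 and 1.00% to 0.633, 0.558 and 0.552% for the large subunit. For the small subunit it went from 0.386, 0.226 and 0.378% to 0.200, 0.200 and 0.201%. COX8A, a small subunit of cytochrome c oxidase, fell from 354, 376 and 250.5 CPM to 76.3, 89.1 and 74.0 CPM (log2 fold change -2.00 with SE 0.28; edgeR adjusted p 0.0015). The other oxidative phosphorylation subunits tested, COX6A1 and COX7C, did not pass (edgeR adjusted p 0.11 and 0.76). Reads on the mitochondrial chromosome made up 2.93, 5.49 and 3.26% of cluster reads in PBS and 2.33, 1.85 and 1.70% after arsenite.

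Other large falls lay outside these lists. HSBP1, a small protein that binds the heat shock factor HSF1, had 495, 522 and 583 CPM in PBS and 129, 153 and 148 after arsenite. On the log2 scale it changed by -1.89 (SE 0.24, edgeR adjusted p 0.00097). BANF1, a DNA-bridging protein of the nuclear envelope, fell from 705, 731 and 673 CPM to 296, 162 and 195 CPM (log2 fold change -1.72, edgeR adjusted p 0.0019). RHOA, the small GTPase of the actin cytoskeleton, fell from 2039, 3804 and 2234 CPM to 953, 869 and 727 CPM (log2 fold change -1.62, edgeR adjusted p 0.002). S100A16, a calcium-binding protein, fell by 1.61 on the log2 scale (edgeR adjusted p 0.001) and C14orf119 by 1.81 (edgeR adjusted p 0.002). PCDH7, a protocadherin, fell from 716 ± 110 to 257 ± 39 CPM (edgeR adjusted p 0.0013). NORAD, a cytoplasmic long noncoding RNA that binds Pumilio proteins, fell from 584 ± 156 to 205 ± 95.3 CPM (edgeR adjusted p 0.016), a call that 5 of the alternatives ended. ARPC5, DNAJC9, OOEP and SGCZ also met the rule for the largest falls, by 1.55, 1.53, 1.54 and 1.57, and 3 or 4 of the alternatives ended each call. For SGCZ the strand came from the reads and the clusters lay a median of 928402 bases from the end of the gene, so position alone names it. In the IgG lists of the same set, 50 of the 920 tested genes had reads, 66 for PABPC1, 51 for HMGA1, 24 for ERRFI1, 17 for CCND1, 11 for RHOA and none for FOS, JUN, EGR1, DNAJB1 or HSBP1.

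A few transcripts known as IGF2BP targets were called, in both directions. CD44, an adhesion receptor, rose from 1376, 1296 and 1758 CPM to 3390, 3252 and 2629 CPM (log2 fold change 1.04 with SE 0.18; edgeR adjusted p 0.0031). ACTB, the target of the founding family member, rose from 709, 731 and 616 to 1530, 1247 and 958 CPM (edgeR adjusted p 0.011). Its call was ended by 2 of the alternatives. CCND1, or cyclin D1, fell from 4787, 5789 and 4131 CPM to 3561, 3049 and 2699 CPM (log2 fold change -0.65, edgeR adjusted p 0.035), and CDK6 fell by 0.44 (edgeR adjusted p 0.046). The calls of CCND1 and CDK6 were ended by 7 and 10 of the alternatives. HMGA1, an architectural chromatin protein, had 8647, 16009 and 8562 CPM in PBS and 8043, 6446 and 5167 after arsenite, and did not pass (edgeR adjusted p 0.11). HMGA2 did not pass either (edgeR adjusted p 0.22). Of 22 family members and reported targets, 9 were tested, with 2 higher and 2 lower, beside 19.3% and 14% of all genes. The transcripts of the family itself were sparse, with 29, 0 and 23 reads of IGF2BP3 in PBS and 0, 33 and 56 after arsenite. IGF2BP2 had 0, 0 and 10 reads in PBS and 0, 28 and 55 after arsenite.

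Within the same genes, reads lay farther from the 3′ end of the gene after arsenite. The question was whether the change in amount came with a change in place, so the share of a gene's reads within 1000 bases of its RefSeq 3′ end was taken. Over 900 genes with at least 50 reads in each group and reads on both sides of that line over all libraries, the mean share was 47.9, 48.7 and 47.8% in PBS. It was 41.0, 41.0 and 40.2% after arsenite, a difference of -7.39 points. The PBS libraries lay within 1 point of each other, as did the arsenite libraries, and the groups were far apart. The share was lower in 639 genes and higher in 261. An exact permutation test (two-sided) gave p = 0.1, below which 3 against 3 libraries cannot go. The difference was -6.19 points with a window of 500 bases and -8.18 with 2000 bases. It was -7.46 points when the same number of most read clusters, 3579, was taken from each library, in 275 genes. In genes that span at most 10000 bases the share went from 66.4 ± 2.84 to 58.4 ± 0.84% (SD, n = 3), and in longer genes from 44.2 ± 0.34 to 37.1 ± 0.37%.

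Single genes showed the shift with few calls. A test of near against far reads in each gene with edgeR's quasi-likelihood method called 7 of the 900 genes lower (0.778%) and 0 higher at an adjusted p under 0.05. Leaving out 1 library gave 0 to 19 genes lower, with 0 without PBS replicate 3, arsenite replicate 1 or arsenite replicate 3, 2 without PBS replicate 1 and 19 without PBS replicate 2, and 1 gene was higher without arsenite replicate 2. HSP90AA1 had 83.9, 90.5 and 87.7% of its reads near the 3′ end in PBS and 56.1, 54.9 and 57.3% after arsenite (edgeR adjusted p 0.016). HSPD1 had 92.8, 89.1 and 90.0% in PBS and 65.4, 65.7 and 63.3% after arsenite. ERRFI1 had 74.1, 81.2 and 75.4% in PBS and 51.8, 52.9 and 52.0% after arsenite, while its total did not pass its test. The calls also held RTN4, a reticulon of the endoplasmic reticulum, with 100% in each PBS library and 84.0, 82.7 and 79.7% after arsenite. ATF3, PCBP1 and MLF2, likewise at 100% in PBS wherever they had reads, were the other genes called. For RTN4, ATF3, PCBP1 and MLF2 no far cluster was called in PBS, and far reads under the caller's thresholds would not count. ATF3 had 106, 0 and 77 reads in PBS and 558, 976 and 1435 after arsenite. Whether depth accounts for the far clusters of these genes was not tested. YTHDF2, a reader of N6-methyladenosine, had 89.5, 100 and 87.9% in PBS and 36.9, 37.5 and 35.2% after arsenite but did not pass (edgeR adjusted p 0.062). It was chosen after its values were seen.

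**Figure D3:**
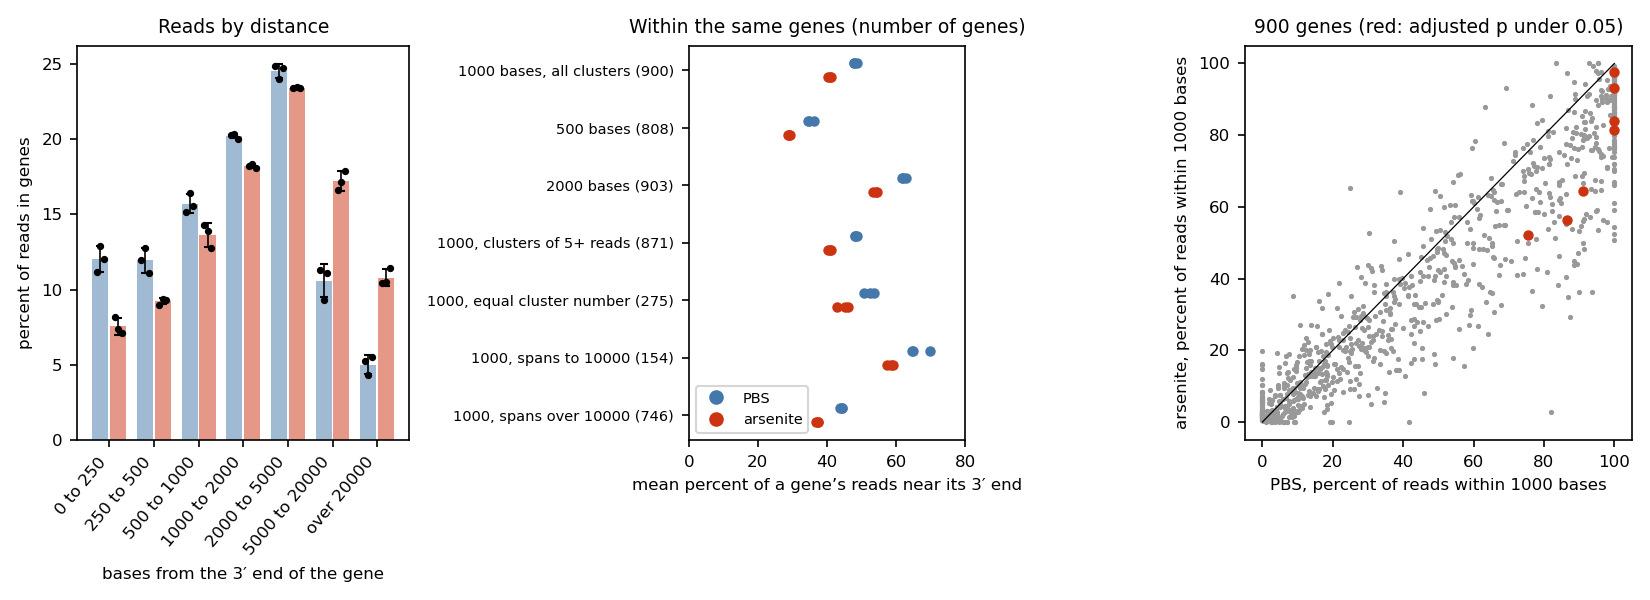
Left, percent of reads in genes at each distance from the gene's 3′ end, bars for the mean of 3 libraries with SD and dots for single libraries, blue for PBS and red for arsenite. Middle, mean percent of a gene's reads near its 3′ end in each library, for several windows and subsets, with the number of genes in parentheses. Right, the pooled share of each of 900 genes in PBS against arsenite; most points lie below the line of equality, and 7 genes in red passed the edgeR test.

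Over all reads in genes, those within 250 bases of the 3′ end went from 12.03 ± 0.86% in PBS to 7.54 ± 0.57% after arsenite (SD, n = 3). Reads 5000 to 20000 bases away went from 10.6 ± 1.11 to 17.2 ± 0.66%, and reads more than 20000 bases away from 5.01 ± 0.63 to 10.8 ± 0.58%. No library of either group overlapped the other group in these classes. The 178 raised genes had a median of 12.2% of PBS reads near the 3′ end, the 129 lowered genes 43.2% and the other 613 genes 23.6%. Their median spans were 44062, 17370 and 32322 bases. These values come from the reads that also gave the calls and are a description. Exons, introns and untranslated regions were not separated, and the end of a RefSeq gene is not the end of each of its transcripts, so the share of spliced and unspliced RNA in the shift was not tested.

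Clusters far from the 3′ end also differed in base content and conversion. Beyond 1000 bases, T made up 32.3% of cluster bases in PBS and 30.2% after arsenite, and within 1000 bases 32.6 and 32.0%. Conversion events were 8.23% of all conversion and non-conversion events in far clusters in PBS and 9.06% after arsenite. In near clusters they were 8.10 and 8.36%. The share also differed by the call of the gene. The classes come from the reads of the same clusters, so these values are a description. Of the 178 raised genes, 7 had no called PBS cluster and enter the arsenite values alone. Whether conversion changed within the same clusters was not tested. In the 178 raised genes the conversion share was 8.57, 8.99 and 8.54% in PBS and 9.61, 9.46 and 9.42% after arsenite. In the 129 lowered genes it was 7.43, 7.89 and 7.47% in PBS and 7.997, 7.82 and 7.77% after arsenite, and there the groups overlapped. The 613 other genes had 8.12 ± 0.26% in PBS and 8.54 ± 0.12% after arsenite.

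**Figure D4:**
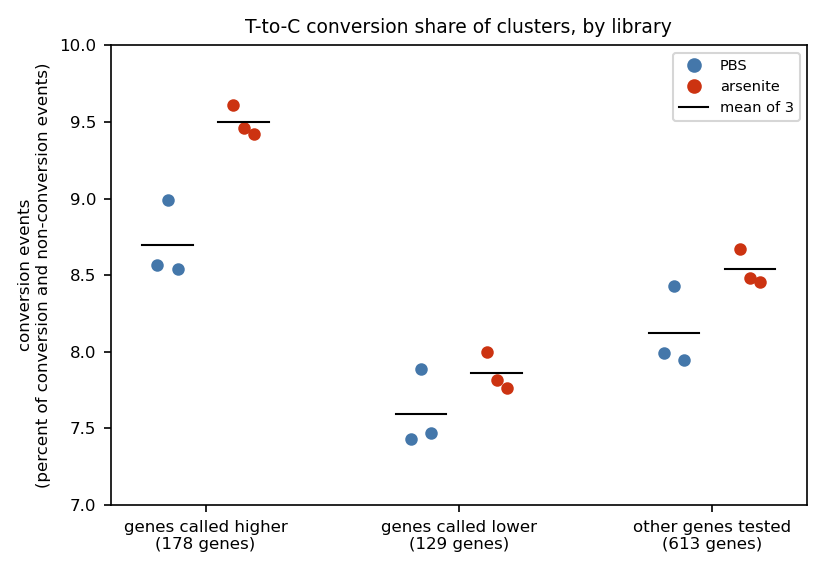
Conversion events as a percent of conversion and non-conversion events in clusters of raised, lowered and other tested genes, each point 1 library with a black line at the mean of 3; the axis runs from 7 to 10%. Raised genes lie highest in both groups, and lowered genes overlap between PBS and arsenite.

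Short motifs moved by small amounts. Clusters with CATT went from 38.7 ± 0.12 to 36.9 ± 0.34% and those with TTTT from 35.6 ± 0.82 to 32.6 ± 1.36%, while CATC went from 27.6 ± 0.45 to 29.8 ± 0.30% and GGAC from 11.9 ± 0.58 to 13.5 ± 0.96% (SD, n = 3). None of these passed, since 3 against 3 libraries cannot give an exact permutation p below 0.1, or 0.16 after adjustment over 18 measures. The directions of CATT and TTTT turned when equal numbers of most read clusters were compared, where mean cluster length was 86.6 bases in PBS and 125.7 after arsenite. Per 1000 bases of all clusters, CATT went from 9.17 ± 0.29 to 8.43 ± 0.27 occurrences. TTTT went from 13.01 ± 0.32 to 11.6 ± 0.18, and neither motif overlapped between groups.

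Regions formed by joining overlapping clusters were led by FOS and EGR1 on the raised side and by LSM3 on the lowered side. Of 4539 regions tested, edgeR's quasi-likelihood test called 436 higher (9.61%) and 92 lower (2.03%), or 528 in all. Without arsenite replicates 1, 2 or 3 it called 74, 79 and 68, and without PBS replicate 2 it called 1204. The balance of higher and lower regions depended on the scaling and on the filter. The TMM factors were 1.89 for PBS replicate 2 and 0.69 for arsenite replicate 3. With library totals as the only scaling 388 regions were higher and 329 lower. The median of all regions was then -0.23 on the log2 scale in place of 0.27. A region with no called PBS cluster was tested only through its arsenite reads, which favours raised regions among those tested. With a mean of at least 20 reads as the filter, 351 of 2891 regions were higher and 135 lower. The region of FOS had no called cluster in PBS and 577, 954 and 1471 reads after arsenite. A region of EGR1 had none in PBS and 228, 328 and 558 reads, although other EGR1 regions had PBS reads. On the lowered side, the region of LSM3, a subunit of the splicing and decay ring, held 40, 17 and 41 reads in PBS and 7, 6 and 12 after arsenite. The region of HNRNPA0, an hnRNP protein that binds AU-rich RNA, held 79, 16 and 74 reads in PBS and 6, 22 and 53 after arsenite, and the groups did not overlap once scaled for depth. In 5 of the 312 genes with a called region, CD164, KITLG, MALL, PDP1 and PHLDA1, regions of the same gene were called in both directions.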

How the data were processed

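Per the submitters' processing notes the reads were handled with bcl2fastq 2.20.0.422, UMI-tools 1.1.1, Trimmomatic 0.30, Bowtie 0.12.7 and featureCounts 2.0.1, and the builds named are GRCh38.p13 and hg38. The authors deposited whole-number counts per gene and, per library, cluster lists with read counts and conversion counts. The cluster caller is not given in the sources used here; the lowest values were 2 reads and 2 conversion locations. The names of both IgG lists contradict their samples, so they were used together and gave no direction. Cluster positions were 1-based, and 190 clusters inside RefSeq promoter windows had identical sequence, 0 different.

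The count table's Ensembl identifiers could not be paired with symbols, so clusters were assigned by midpoint and strand to genes of RefSeq (GRCh38.p14), a step added after the files were seen. Of the clusters, 86.6 to 88.6% fell in 1 gene. For 1383 genes the strand was the one with most reads. Clusters in several genes and on the mitochondrial chromosome were left out of gene tests, and 170 read-through genes were dropped. Tests of genes and regions used edgeR 4.0.16 under R 4.3.3 (quasi-likelihood, TMM, two-sided, Benjamini-Hochberg over all features, threshold 0.05), with DESeq2 1.42.0 as an alternative. Methods were tested on simulated data. Means are given with the SD, and SE is that of the log2 fold change. Named genes are the 12 largest changes per direction among called genes with a mean of at least 50 reads and no overlap, the 4 lowest p-values per direction, and up to 4 members of each list by p; further list members were named after their values were seen. Some genes that meet the rule are not reported here. The genes, lists and rules were chosen with earlier results of these data known. The gene count totals were 130478 in PBS replicate 2 and 403352 to 1098488 in the others, and 0 columns were left unmapped. Replicate pairs differed by more than sampling noise.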

Additional observations from a re-analysis of the deposited data

How the results depend on the processing

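For named genes, 1317 of the recomputed values kept direction and side of the threshold, 128 lost the call and 27 gained it, with 0 reversed. The labels state no pairing of the libraries by number. Same-numbered libraries did not deviate together (r of -0.0056, 0.0150 and 0.0035). Much of the deviation was sampling noise, so this check cannot exclude pairing. With the replicate block, 137 genes were called on cluster reads, 103 higher and 34 lower (307, 178 and 129 without it), 24 regions, 23 higher and 1 lower, and 4 list members were lower against 18. With library totals only, 197 genes, 329 regions and 28 list members were lower. With filterByExpr 253 of 2792 genes were higher and 84 lower. Leaving out 1 library gave 131 to 473 genes, 102 to 273 higher and 29 to 200 lower, 68 to 1204 regions, 58 to 955 higher and 10 to 249 lower, 4 to 26 list members lower, and 0 to 19 genes shifted away from the 3′ end. DESeq2 called 1107 regions, 946 higher and 161 lower. In the count table, DESeq2 called 1233 of 6642 genes, 639 higher and 594 lower, against 2310 with edgeR. A mean count of at least 50 gave 1380 of 2627 genes tested, 705 higher and 675 lower. Thinning every library to the smallest total gave 811 of 3543 genes tested, 446 higher and 365 lower. The test without mitochondrial genes was not run, since the table's genes could not be named. With 3579 clusters per library the difference turned to 7.898 points for CATT. It turned to 6.66 points for CATA. For TTTT the value was 4.99 points. For TGTA the value was 5.26 points. For ATTTA the value was 3.72 points. Weighted by reads the difference in clusters with CATT was 0.18 points. That in clusters with ATTTA was 0.57 points. Occurrences of ACACA per 1000 bases differed by -0.12. Leaving out 1 library moved cluster length between -0.0996 and 3.43 bases and clusters with ACACA between -0.0621 and 0.136 points. The causes were not tested. Depth limits genes with no called PBS cluster, for which only presence after arsenite is known.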
